A study of Mus musculus with 14 samples.

Results

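The natriuretic peptide genes Nppa and Nppb, the 3 sarcomeric and smooth muscle alpha-actin genes Acta1, Acta2 and Actc1, and the Xin genes Xirp1 and Xirp2 were followed in mouse heart nuclei. They were taken by gene ID from a table of read counts for 54446 genes, with symbols from the GENCODE vM21 annotation on GRCm38, because they are known as stress and fetal genes of the heart. All 7 were present, and all 7 were among the 17987 genes that passed the filter on low counts. The study asks what an active form of YAP and the muscle transcription factor MEF2A change in young cardiomyocytes. Mice of the outbred ICR strain were injected intraperitoneally at postnatal day 7 with adeno-associated virus of serotype AAV9, and their hearts were collected 5 days later, at postnatal day 12. In both viruses the cardiac troponin T promoter drives the transgene, which limits its expression largely to cardiomyocytes. The YAP5SA_MEF2A group (2 libraries) received AAV9:cTnT-YAP5SA together with AAV9:cTnT-hMEF2A, each at 1E11 genome copies. The YAP5SA group (3 libraries) received AAV9:cTnT-YAP5SA alone, which carries a YAP that is not held back by Hippo kinases. The MEF2A group (4 libraries) received AAV9:cTnT-hMEF2A alone, which carries human MEF2A, and the Control group (5 libraries) received no virus. Since Control mice had no virus of any kind, the effect of the virus and that of its transgene cannot be told apart in a comparison with Control. Nuclei were enriched with PCM1, a protein of the cardiomyocyte nuclear surface, and their polyA RNA was sequenced without strand information. Whether the libraries come from different animals is not stated in the labels, and p-values therefore cover only the variation from library to library, some of which may be technical.

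Nppa and Nppb encode the precursors of the atrial and brain natriuretic peptides, hormones that the heart secretes under stretch and that act through the receptor guanylate cyclase encoded by Npr1 and its product cyclic GMP. Both genes are active in the fetal ventricle, fall silent or low there after birth, and are used as markers of cardiac stress when they return. The alpha-actins form the thin filaments of muscle: Actc1 encodes the main one of the adult heart, Acta1 that of skeletal muscle and Acta2 that of smooth muscle, and the embryonic heart makes Acta2 and Acta1 before Actc1 dominates. Xirp1 and Xirp2 encode Xin proteins, which bind actin filaments and sit at the intercalated discs that join cardiomyocytes. YAP has no DNA-binding domain and reaches its genes through TEAD factors, which bind the MCAT element, whereas MEF2 factors bind an A/T-rich element of their own and SRF binds the CArG box of many actin genes.

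Promoters of the members were read from RefSeq on GRCm38.p6, as 250 bases before to 50 bases after the RefSeq start site, and 6 of the 7 genes had an entry (Xirp1 was the exception). The 4 promoters that hold an element of TEAD or MEF2 factors are printed here, because these are the factors that the delivered YAP5SA partners with and the family of the delivered MEF2A. Capitals mark the MCAT element (CATTCC, or GGAATG where it lies on the other strand), the CArG box and the MEF2 element. These elements were searched on both strands. The CArG box was searched only in its strict form: CC, 6 bases of A or T, then GG. Stretches that differ from it by a single base, such as ccctatatgg and ccttgtttgg in Acta2, were not marked.

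Nppb, chr4:147985650-147985949, plus strand: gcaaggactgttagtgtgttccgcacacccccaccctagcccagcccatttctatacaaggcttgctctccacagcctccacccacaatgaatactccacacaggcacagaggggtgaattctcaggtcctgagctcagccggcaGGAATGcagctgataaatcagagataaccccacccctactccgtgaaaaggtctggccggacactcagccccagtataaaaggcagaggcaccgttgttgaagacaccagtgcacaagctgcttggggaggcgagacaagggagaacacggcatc

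Acta2, chr19:34255324-34255623, minus strand: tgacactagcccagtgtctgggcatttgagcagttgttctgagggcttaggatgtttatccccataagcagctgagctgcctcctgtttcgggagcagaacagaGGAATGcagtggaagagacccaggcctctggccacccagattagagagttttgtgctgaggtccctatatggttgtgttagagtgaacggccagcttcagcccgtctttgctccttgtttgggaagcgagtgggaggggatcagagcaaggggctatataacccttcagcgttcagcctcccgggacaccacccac

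Acta1, chr8:123894726-123895025, minus strand: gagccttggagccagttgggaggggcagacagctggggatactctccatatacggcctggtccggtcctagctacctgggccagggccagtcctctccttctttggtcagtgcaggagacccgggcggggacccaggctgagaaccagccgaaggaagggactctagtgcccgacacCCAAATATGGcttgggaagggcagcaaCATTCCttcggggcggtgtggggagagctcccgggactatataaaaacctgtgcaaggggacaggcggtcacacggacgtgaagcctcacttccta

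Xirp2, chr2:67445752-67446051, plus strand: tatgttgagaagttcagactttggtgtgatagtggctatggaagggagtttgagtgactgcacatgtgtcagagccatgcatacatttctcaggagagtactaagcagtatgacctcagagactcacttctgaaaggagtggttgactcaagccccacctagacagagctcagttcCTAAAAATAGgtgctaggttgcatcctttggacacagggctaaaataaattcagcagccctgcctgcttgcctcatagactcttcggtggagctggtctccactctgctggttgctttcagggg

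The MCAT element lay on the opposite strand at positions -105 to -100 from the start site in Nppb and at -146 to -141 in Acta2, and on the gene's own strand at -46 to -41 in Acta1. Of the 32851 RefSeq promoters of this length, 14.7% hold it. A CArG box in its strict form was found at -73 to -64 in Acta1 and at -47 to -38 in Actc1, against 1.63% of all promoters. A MEF2 element was found at -74 to -65 in Xirp2, against 3.19%. The Nppa promoter held no match to these 3 patterns. It held a pair of GATAA matches, as did Nppb, with a single one in Acta2 (25.4% of all promoters hold at least 1), and GATA4 is a known activator of the natriuretic peptide genes. TATAAA, the TATA box, was searched in this form and on the gene's own strand only, and 8.32% of promoters hold it. It was found at -9 to -4 in Nppa, -31 to -26 in Nppb and -7 to -2 in Acta1. In Actc1 it lay at 34 to 39, beyond the start site. A match describes letters only and does not show that a factor binds there in these cells. Lack of a match does not show that an element is absent, because only these letter patterns were searched.

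**Figure D1:**
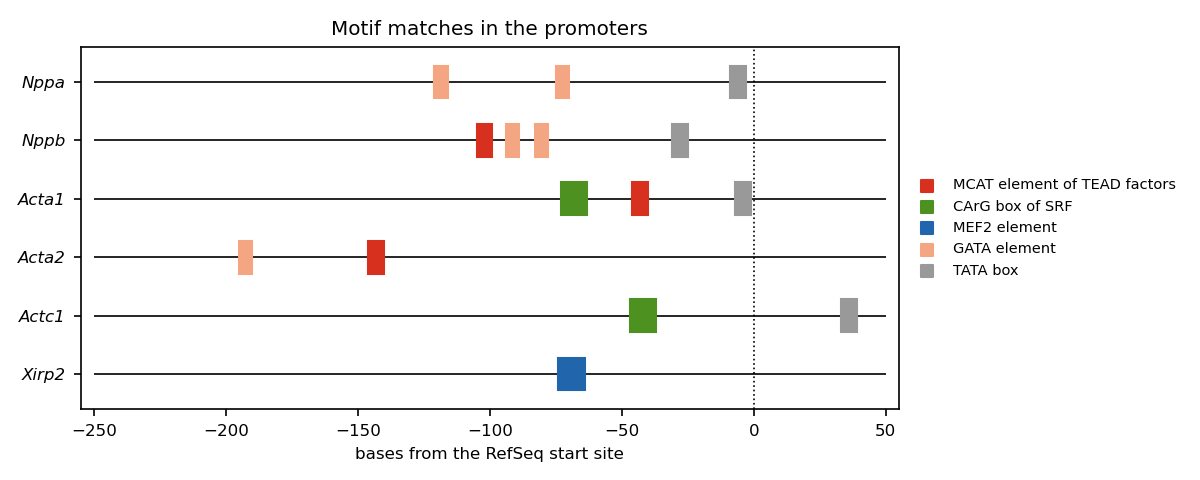
Positions of motif matches in the 6 promoters, with distance from the RefSeq start site in bases on the horizontal axis and 1 line per gene. Coloured blocks are matches on either strand, except that TATAAA was searched on the gene's own strand only. They show the MCAT element in Nppb, Acta1 and Acta2, the strict CArG box in Acta1 and Actc1 and the MEF2 element in Xirp2. GATA elements and TATA boxes are shown too.

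Read depth ran from 16171068 to 24027622 counts per library, and no 2 columns were identical. Batch 1, as the labels name it, held 2 libraries of each group (8 in all), and batch 2 held 6 libraries, of which 1 was YAP5SA and none YAP5SA_MEF2A. Mitochondrial genes took 32.2% of the counts in YAP5SA 3, the only YAP5SA library of batch 2, and 60.8% and 67.5% in the pair of Controls that batch 1 holds (Controls 1 and 2), while the other 11 libraries had 3.802% to 23.2%. By their sex-linked transcripts, both YAP5SA_MEF2A libraries were female, all 3 YAP5SA libraries male, 3 of 4 MEF2A libraries female and 3 of 5 Controls male. The labelled cell type, cardiomyocyte, was checked with 9 markers, of which none was at 0 in any group. Their summed level was 36160 to 40510 CPM (counts scaled to the TMM-adjusted library total) in YAP5SA_MEF2A, 26150 to 38570 in YAP5SA, 78640 to 80240 in MEF2A and 48900 to 81800 in Control, so YAP5SA libraries lay below all MEF2A and Control libraries. In such bulk samples, fewer nuclei of a type and less RNA per nucleus cannot be told apart.

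Compared per length of their exons, Actc1 had by far the highest level of the 7 genes in Control, at 1171 ± 177 CPM per kb (mean ± SD, n = 5). Nppb followed at 153 ± 85.9 and Acta2 at 31.8 ± 8.89 CPM per kb. Acta1 (17.9 ± 12.5), Xirp2 (16.7 ± 6.67), Xirp1 (16.4 ± 3.48) and Nppa (13.1 ± 3.55 CPM per kb) came last, and these 4 neighbours in the order did not differ beyond their spread. In YAP5SA the order began with Actc1 (834 ± 133), Nppb (736 ± 539) and Acta2 (256 ± 168 CPM per kb, n = 3), and the levels of Actc1 and Nppb lay within each other's spread. Nppa came next in YAP5SA at 30.1 ± 21.4 CPM per kb, with Xirp1 at 22.8 ± 9.37, Acta1 at 13.1 ± 13.6 and Xirp2 at 10.4 ± 4.84.

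**Figure D2:**
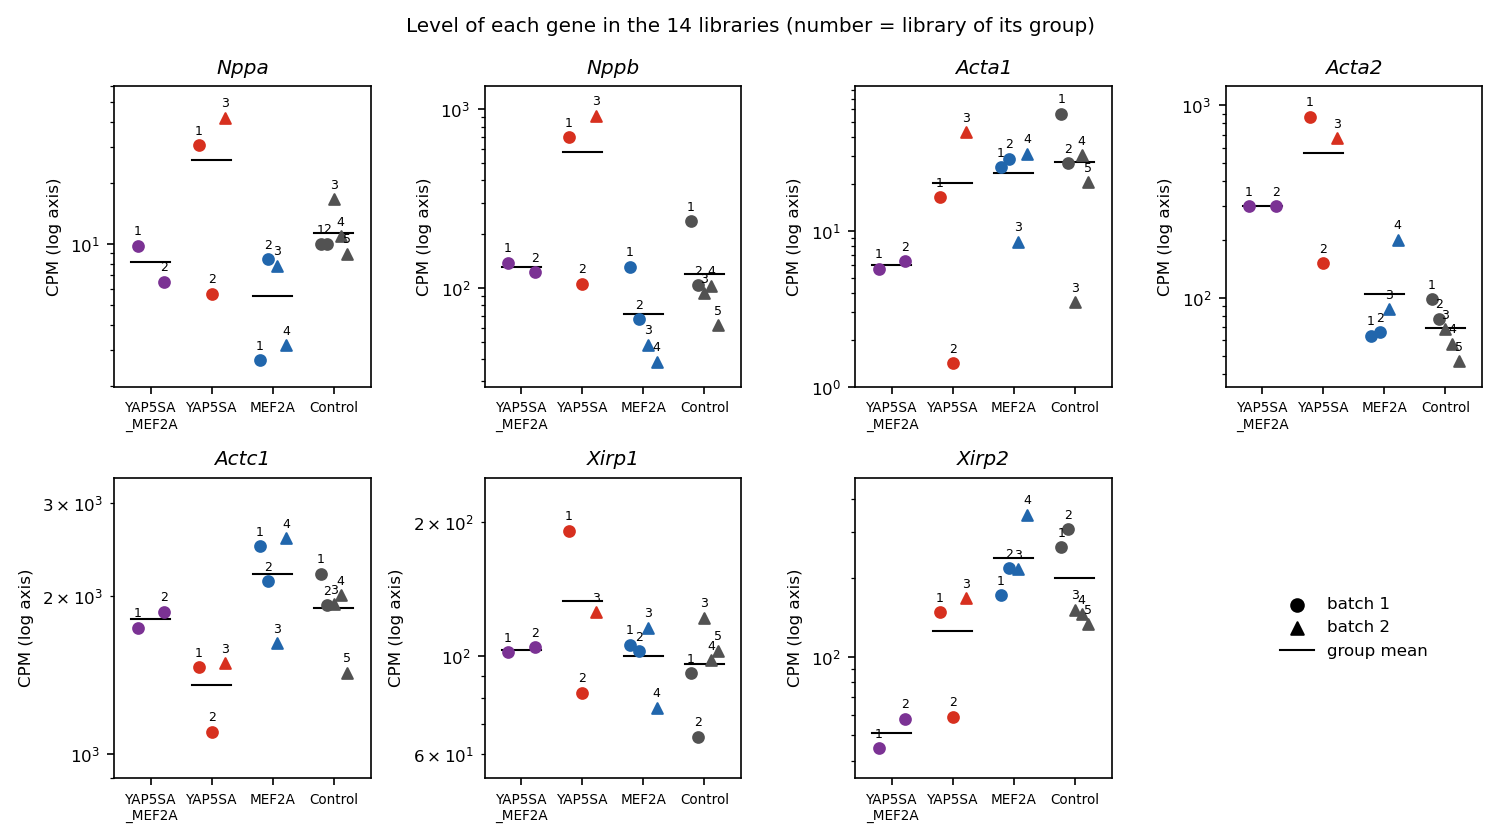
CPM of each gene on a log axis in the 14 libraries, with groups from YAP5SA_MEF2A to Control along each panel, circles for batch 1, triangles for batch 2, bars for group means and numbers for the library of its group. YAP5SA 1 and 3 stand high for Nppb, Nppa and Acta2 while YAP5SA 2 is the lowest of the 3 YAP5SA libraries for each gene, and both YAP5SA_MEF2A libraries are low for Xirp2.

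YAP5SA against Control asks what active YAP does to these genes. Of the 7 members, 2 were called, both higher in YAP5SA: Acta2 and Nppb. A gene was called at an adjusted p under 0.05 in edgeR's quasi-likelihood test, with Benjamini-Hochberg adjustment over all 17987 genes, and 9.86% of all genes tested were called (5.69% higher, 4.17% lower). The median log2 fold change of the 7 members was 0.51, against 0.06 over all genes tested.

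Acta2 (ENSMUSG00000035783, chromosome 19, 34241090 to 34255590, minus strand), which encodes smooth muscle alpha-actin, had 865, 151 and 669 CPM in YAP5SA 1 to 3, against 97.9, 77.6, 68.6, 57.7 and 46.9 CPM in Controls 1 to 5. The groups did not overlap, and YAP5SA 2 was the lowest YAP5SA library. Acta2 was higher in YAP5SA by a log2 fold change of 3.03 ± 0.52 (SE; edgeR adjusted p = 0.00511). Within batch 1 the log2 fold change was 2.49 ± 0.68 (edgeR adjusted p = 0.0608), and within batch 2, where a single YAP5SA library stood against 3 Controls and the spread came from the other groups, it was 3.53 ± 0.37 (adjusted p = 0.000389). Without YAP5SA 3 it was 2.95 ± 0.68 (adjusted p = 0.0556), while each of the other 13 omissions kept the call, with 2.39 to 3.47. Without Controls 1 and 2 the call held at 3.85 ± 0.66 (adjusted p = 0.00741), and when YAP5SA 3 was left out as well it did not, at 4.29 ± 0.95 (adjusted p = 0.135).

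Acta2 is also made by smooth muscle cells, pericytes and activated fibroblasts, so markers of these cells were read in the same libraries. The 11 smooth muscle and mural markers summed to 713 to 1102 CPM in YAP5SA and 936 to 1231 in Control, and 0 of the 11 were called. Tagln was at 0 in all 5 Controls, while YAP5SA, YAP5SA_MEF2A and MEF2A each had counts of it. Smtn (mean 362 CPM in YAP5SA and 552 in Control) and Pdgfrb (203 and 171 CPM) had the highest levels of the list. The sum therefore says little about the other markers. The 8 fibroblast markers summed to 1733 to 3083 CPM in YAP5SA and 1264 to 2163 in Control, with none at 0 in either group and 0 called. The 8 macrophage markers summed to 177, 77.8 and 797 CPM in YAP5SA 1 to 3, against 53.7 to 161 in Control, and Mrc1 was called. YAP5SA 3 also had the highest fibroblast sum of its group (3083 CPM, against 1775 and 1733 in YAP5SA 1 and 2). Its cardiomyocyte sum was the lowest of the group (26150 CPM, against 32880 and 38570). Of the 8 endothelial markers, which summed to 188 to 355 CPM in YAP5SA and 314 to 750 in Control with none at 0, 4 were called lower (Kdr, Tek, Tie1 and Egfl7), and the median log2 fold change of the list was -0.94. Of 10 tested skeletal muscle markers, 4 were called higher in YAP5SA (Myh1, Myh2, Myh8 and Myog), and Myh1 and Myog were at 0 in all Controls. Of the 9 cardiomyocyte markers, 3 were called lower in YAP5SA (Myh6, Ttn and Tnni3). The part of the smooth muscle, fibroblast, macrophage, endothelial, skeletal muscle and cardiomyocyte cells in the members' levels was not tested.

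Nppb (ENSMUSG00000029019, chromosome 4, 147985788 to 147987205, plus strand) had 698, 105 and 920 CPM in YAP5SA 1 to 3, against 236, 104, 93.6, 103 and 62.0 CPM in Controls 1 to 5. YAP5SA 1 and 3 lay above every Control, and YAP5SA 2 lay within the Control range. The log2 fold change was 2.32 ± 0.63 (edgeR adjusted p = 0.0462), close to the threshold. It was 1.20 ± 0.82 (adjusted p = 0.378) within batch 1 and 3.42 ± 0.26 (adjusted p = 1.86e-06) within batch 2, where the only YAP5SA library was YAP5SA 3. Leaving out 1 library ended the call in 11 of 14 cases: without any of Controls 2 to 5, MEF2A 2 to 4, YAP5SA 1 or 3, or either YAP5SA_MEF2A library, the adjusted p was 0.0554 to 0.411, the highest without YAP5SA 3 (log2 fold change 1.18 ± 0.66). It held without Control 1 (adjusted p = 0.0399), MEF2A 1 (0.0496) or YAP5SA 2 (2.87 ± 0.37, adjusted p = 0.000231). Without Controls 1 and 2 the value was 2.66 ± 0.80 (adjusted p = 0.0687), and with a term for sex 2.31 ± 0.73 (adjusted p = 0.0769).

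Nppa (ENSMUSG00000041616, chromosome 4, 148000722 to 148002079, plus strand), which lies 13516 bases beyond Nppb, had 30.7, 5.68 and 41.9 CPM in YAP5SA 1 to 3, against 9.98, 10.04, 16.6, 10.9 and 8.93 CPM in Controls 1 to 5. As with Nppb, YAP5SA 1 and 3 lay above all Controls, and here YAP5SA 2 lay below all of them. The log2 fold change was 1.26 ± 0.49 (edgeR adjusted p = 0.125). It was 0.82 ± 0.74 (adjusted p = 0.499) within batch 1 and 1.78 ± 0.46 within batch 2, with YAP5SA 3 alone in its group, where Nppa was called (adjusted p = 0.0202). Nppa was also called without YAP5SA 2 (1.69 ± 0.39, edgeR adjusted p = 0.00608). It was called with library totals (1.86 ± 0.51, adjusted p = 0.0219), beside a median over all genes of 0.69. With no filter on low counts it was called too (1.27 ± 0.33, adjusted p = 0.00284), where the value barely moved and the SE was smaller. Counts of Nppa are uncertain, because the antisense gene Gm13054 shares 532 bases, or 61.5%, of its exons and the libraries carry no strand. Gm13054 itself had 3.76 ± 2.28 CPM in YAP5SA and 1.12 ± 0.81 in Control. Atrial cardiomyocytes are a known source of Nppa, and the 7 atrial markers summed to 365 to 814 CPM in YAP5SA and 668 to 900 in Control, with Nr2f1 called lower and no marker at 0. YAP5SA 3, the highest YAP5SA library for Nppa, had the highest of these YAP5SA sums. The part of atrial cells in the level of Nppa was not tested.

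The other alpha-actins and the Xin genes were not called in YAP5SA against Control. Actc1 (ENSMUSG00000068614, chromosome 2, 114047282 to 114053548, minus strand) had 1459, 1101 and 1487 CPM in YAP5SA 1 to 3, against 2200, 1916, 1925, 2005 and 1425 CPM in Controls 1 to 5, so that Control 5 alone lay among the YAP5SA libraries (log2 fold change -0.51 ± 0.21, edgeR adjusted p = 0.135). That sign turned with library totals in place of TMM factors, at 0.13 for Actc1 while the median of all genes moved to 0.69. Acta1 (ENSMUSG00000031972, chromosome 8, 123891769 to 123894751, minus strand) varied most within groups, with 1.41 to 42.7 CPM in YAP5SA and 3.47 to 56.3 CPM in Control (-0.41 ± 1.01, adjusted p = 0.851). The 95% interval of its log2 fold change, -2.67 to 1.85, spans changes in either direction that these libraries could not resolve. Xirp1 (ENSMUSG00000079243, chromosome 9, 120013755 to 120023598, minus strand) had 82.4 to 191 CPM in YAP5SA and 65.6 to 122 CPM in Control (0.51 ± 0.25, adjusted p = 0.207), and was called only without YAP5SA 2 (0.73 ± 0.23, adjusted p = 0.0388). Xirp2 (ENSMUSG00000027022, chromosome 2, 67446002 to 67526614, plus strand) had 148, 59.0 and 168 CPM in YAP5SA 1 to 3, against 263, 308, 151, 145 and 133 CPM in Controls 1 to 5 (-0.68 ± 0.38, adjusted p = 0.293). Within batch 1, where the Controls were the 2 highest, it was called lower (-1.51 ± 0.37, adjusted p = 0.0401), and within batch 2 the sign turned (0.23 ± 0.27, adjusted p = 0.643). Controls 1 and 2 are also the libraries in which mitochondrial genes took 60.8% and 67.5% of the counts, and the part of this in the level of Xirp2 was not tested.

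**Figure D3:**
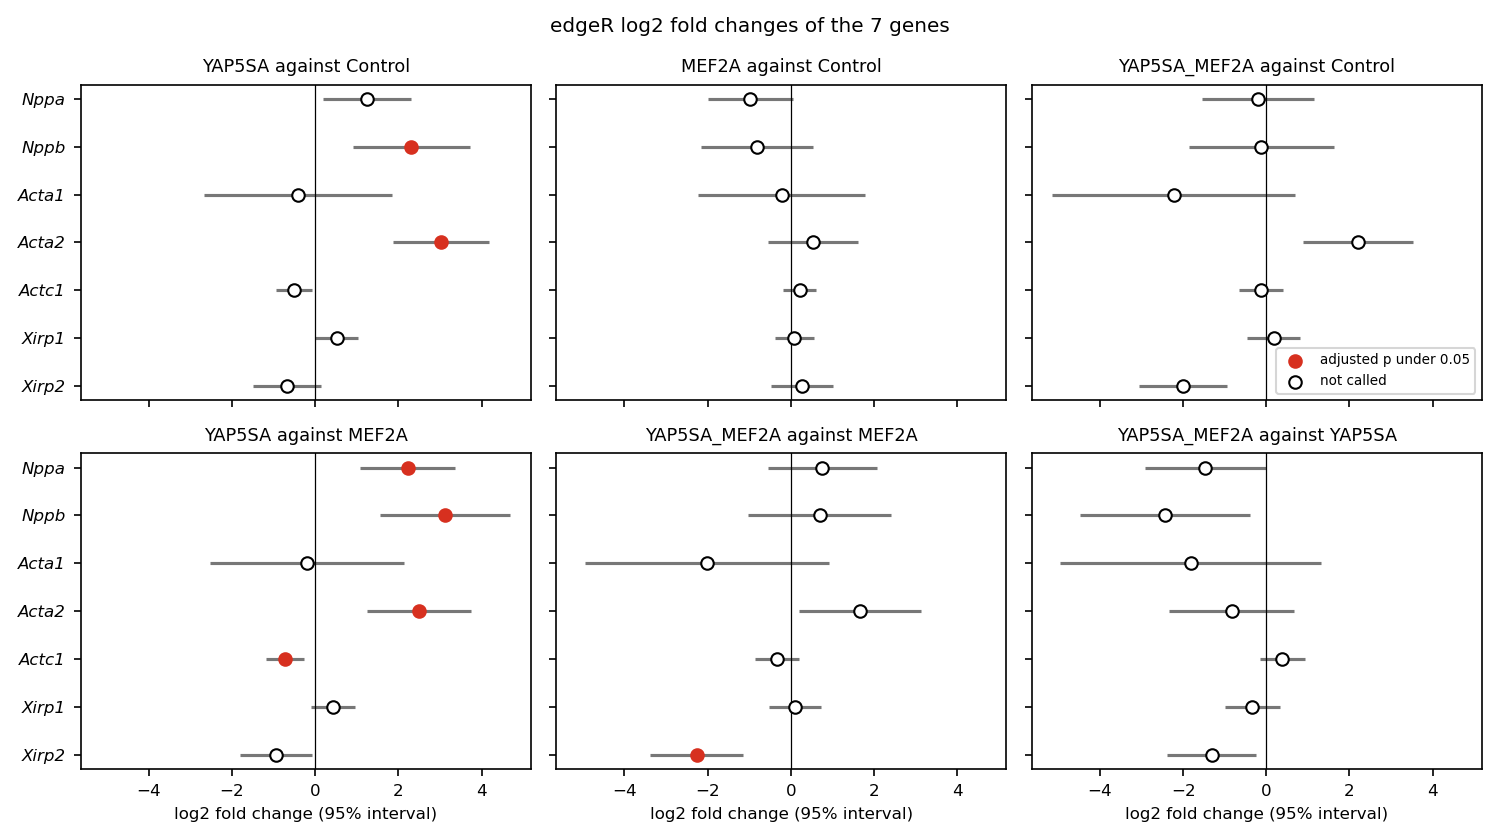
edgeR log2 fold change of each gene with its 95% interval in the 6 comparisons between groups; the vertical line marks no change and red points an adjusted p under 0.05. Acta2 and Nppb are red in YAP5SA against Control, Nppa, Nppb, Acta2 and Actc1 in YAP5SA against MEF2A, and Xirp2 in YAP5SA_MEF2A against MEF2A.

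The 3 alpha-actins share much sequence, with 82.5% to 86.2% identical bases between their 1134-base open reading frames and identical runs of at most 29 bases, and how the authors counted reads that fit several genes is not given in the sources used here. As a description with no test, Acta2 made up 10.8% ± 0.464 of the per-length sum of the 3 genes in YAP5SA_MEF2A (SD, n = 2), 21.2% ± 10.8 in YAP5SA (n = 3), 3.29% ± 1.60 in MEF2A (n = 4) and 2.58% ± 0.415 in Control (n = 5). The share ran from 9.14% to 30.1% over the YAP5SA libraries, against 2.04% to 3.09% over the Controls, so that even the lowest YAP5SA library was above the highest Control. Actc1 held 88.9% in YAP5SA_MEF2A, 77.7% in YAP5SA, 95.7% in MEF2A and 96.0% in Control, and Acta1 1.43% or less on average in each of the 4 groups.

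**Figure D4:**
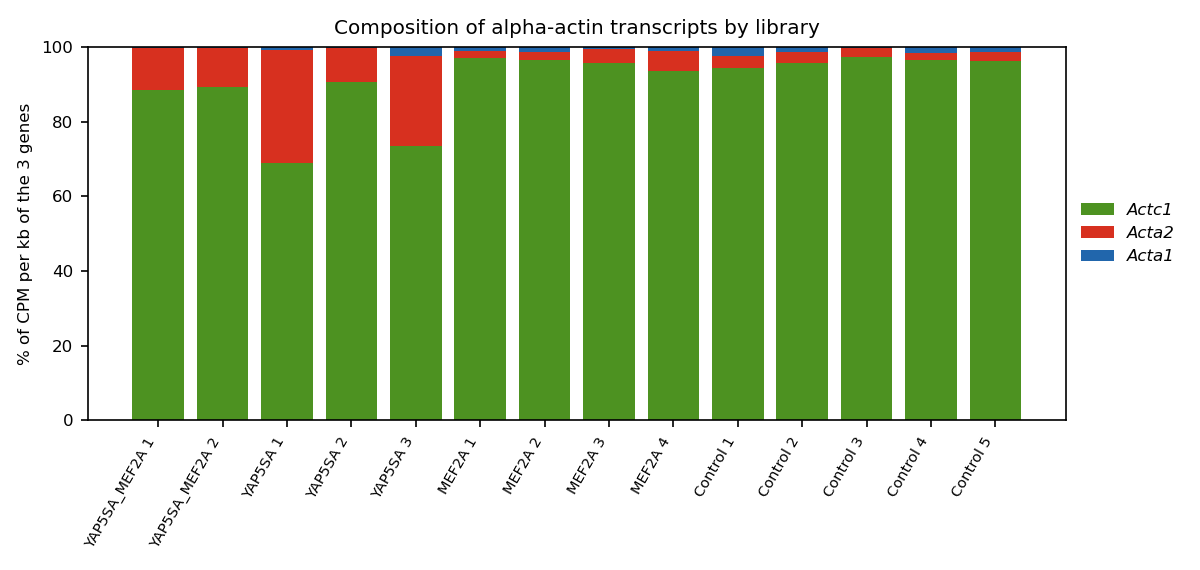
Share of each alpha-actin gene in the summed CPM per kb of the 3 genes, in percent, with 1 stacked bar per library. Acta2 (red) takes 9.14% to 30.1% in the YAP5SA libraries and 10.5% to 11.1% in YAP5SA_MEF2A, against 2.04% to 3.09% in Control, and Actc1 (green) holds most of the rest.

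MEF2A against Control asks what added MEF2A does alone. None of the 7 members was called, in a comparison in which edgeR called 0.0167% of all genes (3 of 17987, with 616 higher and 692 lower at an unadjusted p under 0.05; DESeq2 called 84 genes and limma-voom 0, with 0 members in either). Nppa had 2.67, 8.43, 7.82 and 3.16 CPM in MEF2A 1 to 4, all below the 8.93 to 16.6 CPM of the Controls, and its log2 fold change was -0.97 ± 0.48 (edgeR adjusted p = 0.697). Nppb had 132, 66.9, 48.2 and 38.6 CPM in MEF2A 1 to 4, against 62.0 to 236 CPM in Control (-0.81 ± 0.60, adjusted p = 0.814), and its groups overlapped. Acta2 had 63.3, 66.2, 87.2 and 199 CPM in MEF2A 1 to 4, against 46.9 to 97.9 CPM in Control (0.54 ± 0.49, adjusted p = 0.862), so that MEF2A 4 alone lay above the Controls. The log2 fold changes of Acta1, Actc1, Xirp1 and Xirp2 were -0.22, 0.21, 0.08 and 0.27, with adjusted p of 0.85 or more. The 95% intervals were widest for Acta1 (-2.22 to 1.79) and narrowest for Actc1 (-0.18 to 0.60).

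YAP5SA against MEF2A sets the single viruses side by side, so that both groups carried AAV9. Of the 7 members, 4 were called, in a comparison in which 14.9% of all genes were (7.77% higher, 7.12% lower): Nppa, Nppb and Acta2 were higher in YAP5SA, and Actc1 was lower. It shares its libraries with the comparisons against Control and is not independent of them. Nppb, at 698, 105 and 920 CPM in YAP5SA against 132, 66.9, 48.2 and 38.6 CPM in MEF2A, differed by a log2 fold change of 3.13 ± 0.70 (edgeR adjusted p = 0.0163). Nppa, at 30.7, 5.68 and 41.9 CPM in YAP5SA against 2.67, 8.43, 7.82 and 3.16 CPM in MEF2A, differed by 2.23 ± 0.53 (adjusted p = 0.0128), and by 2.39 ± 0.53 (adjusted p = 0.0085) when the counts of Gm13054 were added to its own. Acta2 differed by 2.50 ± 0.57 (adjusted p = 0.015), and for these 3 genes YAP5SA 2 overlapped the MEF2A libraries. Actc1, at 1459, 1101 and 1487 CPM in YAP5SA, lay below all 4 MEF2A libraries (2485, 2132, 1622 and 2575 CPM), by -0.72 ± 0.22 (adjusted p = 0.0329). Xirp2 did not overlap either, with at most 168 CPM in YAP5SA and at least 172 CPM in MEF2A, yet was not called (-0.95 ± 0.40, adjusted p = 0.131).

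Single libraries decided some of these calls. Without YAP5SA 1 or 3 the calls of Nppa (adjusted p = 0.079 and 0.113), Nppb (0.0639 and 0.114) and Acta2 (0.0582 and 0.116) were lost, and Nppb was also lost without MEF2A 3 (0.0509) or MEF2A 4 (0.0532). Actc1 was lost without MEF2A 1 or 4, any of the 3 YAP5SA libraries, or either YAP5SA_MEF2A library (adjusted p = 0.0501 to 0.0852). Within batch 1 the log2 fold changes were 1.70 for Nppa, 2.01 for Nppb, 2.96 for Acta2 (adjusted p = 0.225, 0.224 and 0.0599) and -0.86 for Actc1 (adjusted p = 0.0496). Within batch 2 they were 2.90, 4.39, 2.21 (adjusted p = 0.00227, 2.88e-06 and 0.00809) and -0.52 (adjusted p = 0.391), again with YAP5SA 3 as the only library of its group. Library totals in place of TMM factors ended the call of Actc1 (-0.30 ± 0.43, adjusted p = 0.728), with a median over all genes of 0.51. With a term for sex Nppa (2.27, adjusted p = 0.0753) and Nppb (3.11, adjusted p = 0.0841) lost their calls, while Acta2 and Actc1 kept theirs and Xirp2 gained one (-1.49 ± 0.38, adjusted p = 0.0191). Beside these values, the fibroblast markers Col1a1, Dcn and Lum and the macrophage markers Cd68, C1qa, C1qb and Mrc1 were called higher in YAP5SA than in MEF2A, of 8 tested in each list, as were the skeletal muscle markers Myh1, Myh2 and Myh8, while 7 of 9 cardiomyocyte markers, the endothelial markers Tek, Tie1 and Egfl7 and the smooth muscle marker Smtn were called lower. Their part in the member genes was not tested.

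In YAP5SA_MEF2A against Control, the question is what both factors do together. None of the 7 members was called by edgeR, while 1.36% of all genes were (1.16% higher, 0.195% lower, and 1465 and 980 at an unadjusted p under 0.05), and DESeq2 and limma-voom each called 2 members, Acta2 and Xirp2. Xirp2 had 44.7 and 57.9 CPM in the YAP5SA_MEF2A libraries, below all Controls (263, 308, 151, 145 and 133 CPM). Its log2 fold change was -1.99 ± 0.49 (edgeR adjusted p = 0.0677). It was called within batch 1 (-2.51 ± 0.39, adjusted p = 0.00819), which held all YAP5SA_MEF2A libraries, and without MEF2A 4, YAP5SA 2 or YAP5SA 3 (adjusted p = 0.0371, 0.0114 and 0.0455), but was -0.87 ± 0.42 (adjusted p = 0.392) without Controls 1 and 2, the Controls of batch 1. Acta2 had 297 and 298 CPM in the YAP5SA_MEF2A libraries, above all Controls (46.9 to 97.9 CPM), with a log2 fold change of 2.20 ± 0.60 (adjusted p = 0.113). Without YAP5SA 2 it was called (2.13 ± 0.43, edgeR adjusted p = 0.0289), as it was with a term for sex (2.91 ± 0.55, adjusted p = 0.0352). With library totals it was called too (3.16 ± 0.53, adjusted p = 0.000571), beside a median over all genes of 0.84.

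The natriuretic peptides lay within or near the Control range in YAP5SA_MEF2A. Nppb had 138 and 122 CPM, inside the 62.0 to 236 CPM of the Controls, and a log2 fold change of -0.12 ± 0.78 (edgeR adjusted p = 0.974) with a 95% interval of -1.86 to 1.63. Nppa had 9.81 and 6.53 CPM, against 8.93 to 16.6 CPM in Control (-0.21 ± 0.63, adjusted p = 0.932). Acta1 had 5.70 and 6.37 CPM, against 3.47 to 56.3 CPM in Control, and its log2 fold change of -2.23 ± 1.30 (adjusted p = 0.514) had a 95% interval of -5.15 to 0.69. Skeletal muscle genes were read because Acta1 is the actin of that tissue. The 15 markers summed to 244 to 250 CPM in YAP5SA_MEF2A, 74.6 to 126 in YAP5SA, 13.2 to 21.7 in MEF2A and 13.7 to 31.4 in Control. Tnnc2, Myod1 and Pax7 were at 0 in every group, and Acta1 did not follow the order of the sums. Myh1, Myh2 and Myh8 were called higher in YAP5SA_MEF2A than in Control and than in MEF2A. Actc1 (1737 and 1865 CPM) and Xirp1 (102 and 104 CPM) lay inside their Control ranges.

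Against MEF2A, the YAP5SA_MEF2A group differs by the added YAP5SA virus, and 1 member was called: Xirp2, which was lower. Of all genes, 2.32% were called (1.61% higher, 0.706% lower). The 2 YAP5SA_MEF2A libraries had 44.7 and 57.9 CPM, against 172, 218, 217 and 350 CPM in MEF2A 1 to 4, with a gap between the groups. The log2 fold change was -2.26 ± 0.52 (edgeR adjusted p = 0.0388), and -1.93 ± 0.38 (adjusted p = 0.0414) within batch 1. The call was lost without MEF2A 2 (adjusted p = 0.0752), MEF2A 3 (0.0575), YAP5SA_MEF2A 1 (0.474) or YAP5SA_MEF2A 2 (0.28), the last pair leaving a single library that is taken to vary like the other groups, with -2.52 to -2.09 over all omissions. It was also lost with library totals (-1.57 ± 0.49, adjusted p = 0.0751), with a median over all genes of 0.67, and it held without Controls 1 and 2 (-1.88, adjusted p = 0.00984), without these and YAP5SA 3 (-1.91, adjusted p = 0.0247) and with a term for sex (-1.97, adjusted p = 0.0222). Gm13601, an antisense gene that shares 1.40% of the exon bases of Xirp2, had at most 6 counts in any library. Acta2, at 297 and 298 CPM in YAP5SA_MEF2A against 63.3 to 199 CPM in MEF2A, did not overlap and was not called (1.67 ± 0.67, adjusted p = 0.254). It was called with library totals (2.40 ± 0.55, adjusted p = 0.0134), with no filter on low counts and with only these 2 groups in the fit (2.20 ± 0.39, adjusted p = 0.0213).

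**Figure D5:**
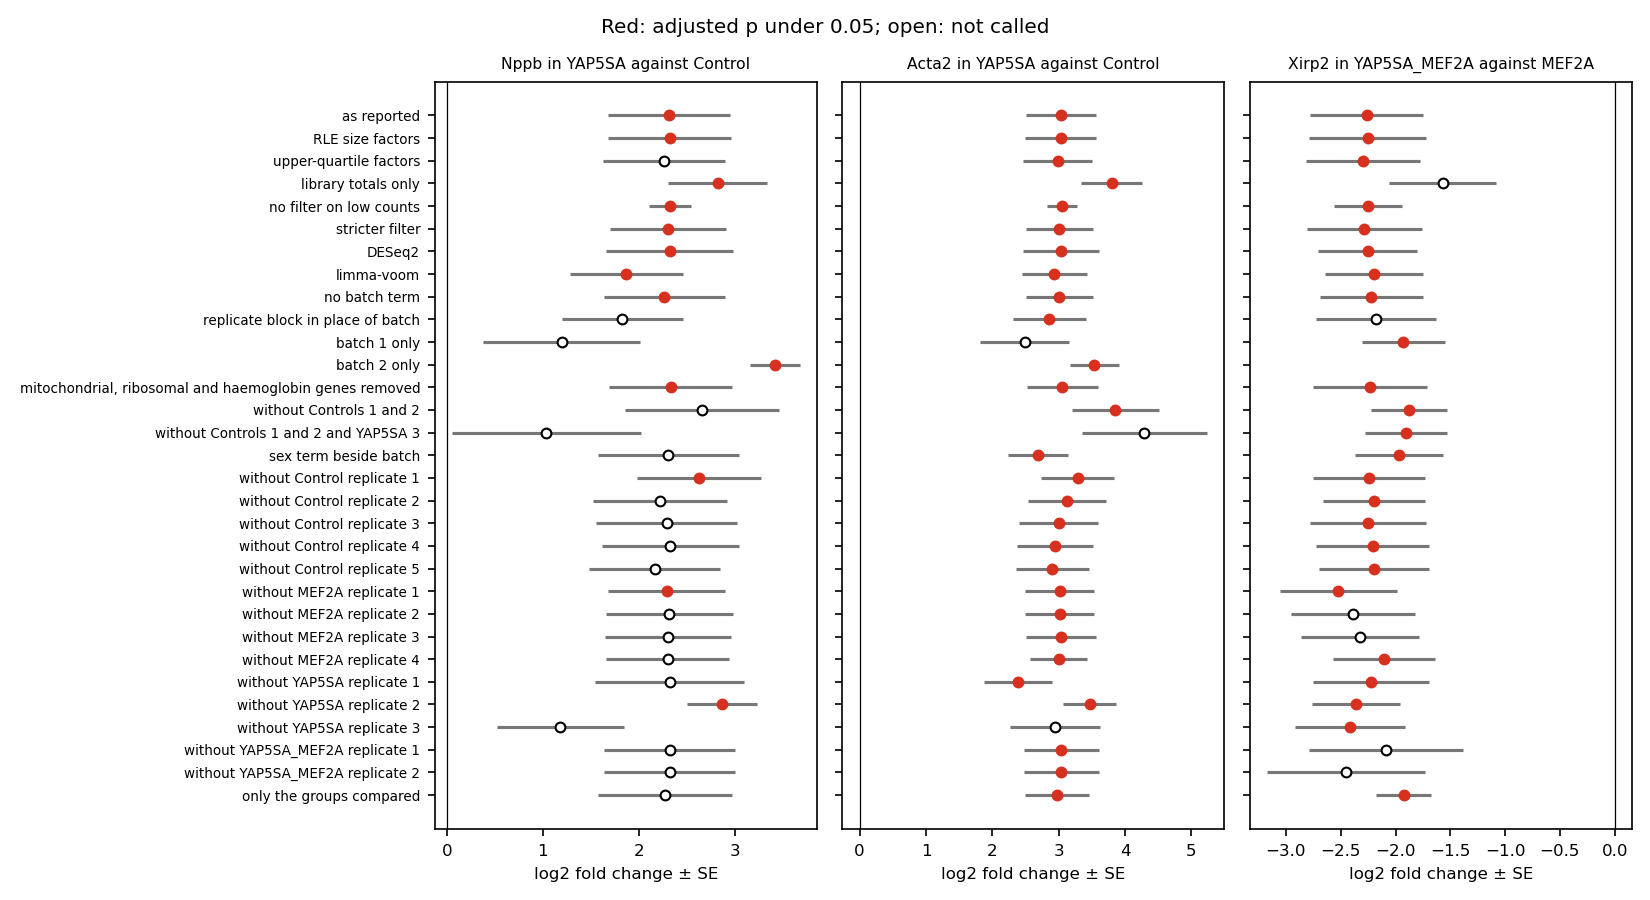
log2 fold change ± SE of Nppb and Acta2 in YAP5SA against Control and of Xirp2 in YAP5SA_MEF2A against MEF2A as reported and under each other setting, 1 line per setting; red points have an adjusted p under 0.05 and open points do not. Nppb loses its call under most omissions of a library and lies lowest without Controls 1 and 2 and YAP5SA 3 (1.04), while every value of Acta2 stays at 2.39 or above and every value of Xirp2 at -1.57 or below.

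YAP5SA_MEF2A against YAP5SA compares groups that differ by the added MEF2A virus and also by sex. Both YAP5SA_MEF2A libraries were female and all 3 YAP5SA libraries male, so that virus and sex cannot be told apart within these groups, and a term for sex rests on the MEF2A and Control libraries. The comparison gave 0 called genes of any kind in edgeR (0% of 17987, with 254 higher and 262 lower at an unadjusted p under 0.05), against 17 in DESeq2 and 1 in limma-voom, none of them a member. The members' adjusted p was 1 throughout. Nppb had 138 and 122 CPM in YAP5SA_MEF2A, against 698, 105 and 920 CPM in YAP5SA, so that YAP5SA 2 lay below both (log2 fold change -2.43 ± 0.92, unadjusted p = 0.0246). Without YAP5SA 2 the value for Nppb was -3.15 ± 0.53 (edgeR adjusted p = 0.0164). Xirp2, at 44.7 and 57.9 CPM in YAP5SA_MEF2A, lay below the 59.0 CPM of YAP5SA 2 and well below YAP5SA 1 and 3 (148 and 168 CPM), with -1.32 ± 0.50 (unadjusted p = 0.0206), and Nppa had -1.46 ± 0.68 (unadjusted p = 0.0482). Acta2 had -0.83 ± 0.68 and a 95% interval of -2.34 to 0.67, its sign turned with a term for sex (0.22 ± 0.67, adjusted p = 1), and both YAP5SA_MEF2A libraries lay between YAP5SA 2 and YAP5SA 3. The interaction, the change of YAP5SA_MEF2A against MEF2A minus that of YAP5SA against Control, called 0 genes in edgeR (0%, with 207 and 234 at an unadjusted p under 0.05) and 22 in DESeq2, none a member. For Xirp2 it was -1.59 ± 0.61 (unadjusted p = 0.0222, adjusted p = 1), for Nppb -1.62 ± 1.04 and for Acta2 -1.37 ± 0.85. A difference between the effects of YAP5SA with and without MEF2A was therefore not called for any member.

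The spread within YAP5SA ran the same way for every member. YAP5SA 2 was the lowest of its 3 libraries for all 7 genes: 5.68 CPM for Nppa, 105 for Nppb, 1.41 for Acta1, 151 for Acta2, 1101 for Actc1, 82.4 for Xirp1 and 59.0 for Xirp2. It shares batch 1 with YAP5SA 1, which had 698 CPM of Nppb and 865 CPM of Acta2. The pattern was not particular to the members. YAP5SA 2 was also the lowest of its group for Actb (375 CPM, against 1007 and 1020), Ccn2 and Fhl1, and the highest for Nebl, Tnni3 and Ttn. Without YAP5SA 2, edgeR called 2998 genes in YAP5SA against Control, against 1773 as reported.

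The genes around the members' products were read as 6 lists, as counts of called genes beside the shares given above. Of 14 tested genes of natriuretic peptide processing, receptors and cyclic GMP signalling, 1 rose and 2 fell in YAP5SA against Control, with a median log2 fold change of -0.44, against 0.06 over all genes. Furin, a protease that cuts the precursor of brain natriuretic peptide, rose to 50.8 ± 11.8 CPM in YAP5SA, against 25.96 ± 8.43 in Control (log2 fold change 1.01 ± 0.25, edgeR adjusted p = 0.015). Pde3a, a phosphodiesterase inhibited by cyclic GMP, fell to 23.0 ± 7.98 CPM in YAP5SA, against 39.1 ± 11.3 in Control (-0.87 ± 0.24, adjusted p = 0.0306), and Npr1, the receptor gene, was the other one that fell. The call of Pde3a was lost with library totals (-0.18), with no batch term and without Control 2, and it was not made within batch 2. Both calls were lost without YAP5SA 1, without YAP5SA 3, without Controls 1 and 2, within batch 1 and with only the groups compared.

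Of the 3 other actins, Actb, the cytoplasmic beta-actin, rose to 801 ± 369 CPM in YAP5SA, against 221 ± 77.8 in Control (1.83 ± 0.39, edgeR adjusted p = 0.0116), and the list's median was -0.63. The call of Actb was lost without YAP5SA 1 or 3 and without Controls 1 and 2, and it was not made within batch 2. Of 15 partners of the thin filament, 1 rose (Actn1) and 3 fell (Nebl, Tnni3 and Ldb3), with a median of -0.28. Nebl, which encodes the actin-binding Z-disc protein nebulette and also belongs to the partners of the Xin proteins, fell to 124 ± 44.5 CPM in YAP5SA, against 329 ± 18.3 in Control (-1.47 ± 0.21, adjusted p = 0.000319), and it fell in YAP5SA_MEF2A as well (172 ± 10.01 CPM, -1.03 ± 0.25, adjusted p = 0.0473). Tnni3, cardiac troponin I, fell to 1079 ± 539 CPM in YAP5SA, against 2363 ± 477 in Control (-1.14 ± 0.28, adjusted p = 0.0156). With library totals the calls of Nebl (-0.78 in YAP5SA and -0.20 in YAP5SA_MEF2A) and Tnni3 (-0.46) were lost, beside a median over all genes of 0.69 in YAP5SA and 0.84 in YAP5SA_MEF2A against Control. The call of Tnni3 was also lost without Control 1, YAP5SA 1 or YAP5SA 3, within batch 1 and with only the groups compared. That of Nebl in YAP5SA_MEF2A was also lost without either of its own libraries, Controls 1, 2, 4 or 5, or MEF2A 2 or 3. It was lost too without Controls 1 and 2 together, with a term for sex and with replicate number in place of batch. Of 9 partners of the Xin proteins, Cdh2, the N-cadherin of the intercalated disc, rose to 61.4 ± 18.1 CPM in YAP5SA, against 34.3 ± 7.85 in Control (0.78 ± 0.20, edgeR adjusted p = 0.02), and Nebl fell (list median 0.08). Cdh2 was not called without Control 1, YAP5SA 1 or YAP5SA 3 or within batch 1. Nor was it called with replicate number in place of batch or with only the groups compared.

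Of 16 genes of SRF, its cofactors and cardiac factors, 3 rose (Mrtfa, Hand2 and Tead1) and 1 fell (Hopx) in YAP5SA against Control, with a median of 0.03. Mrtfa, a cofactor of SRF that senses free actin, rose to 43.6 ± 6.63 CPM in YAP5SA, against 27.5 ± 5.53 in Control (0.73 ± 0.20, edgeR adjusted p = 0.0261). It was not called without Control 1, Control 2, both of these, YAP5SA 1 or YAP5SA 3, nor within either batch. The call was also lost with no filter on low counts and with only the groups compared. Hopx, which binds SRF and restrains it, fell to 15.3 ± 3.17 CPM, against 35.2 ± 10.5 in Control (-1.21 ± 0.29, edgeR adjusted p = 0.0135). It was not called without YAP5SA 1 or 3 or without Controls 1 and 2, within batch 2, or with library totals, at -0.48. With replicate number in place of batch, neither Mrtfa nor Hopx was called. Of 16 other fetal and stress genes of the heart, 3 rose (Ccn2, Fhl1 and Timp1) and 0 fell, with a median of 0.48. Ccn2, a secreted matrix protein and known YAP target, rose to 386 ± 191 CPM in YAP5SA, against 46.4 ± 12.5 in Control (3.01 ± 0.39, adjusted p = 0.000558), and to 239 ± 53.8 CPM in YAP5SA_MEF2A (2.22 ± 0.47, adjusted p = 0.0349), where 11 of 29 other settings did not call it, among them the omission of Control 1, 2 or 4, MEF2A 4, YAP5SA 3 or either YAP5SA_MEF2A library. Fhl1, a LIM protein of the stressed myocardium, rose to 186 ± 125 CPM in YAP5SA, against 38.2 ± 8.20 in Control (2.30 ± 0.40, adjusted p = 0.00364; not within batch 1), and had 51.2 ± 0.381 CPM in YAP5SA_MEF2A. Without Controls 1 and 2 and YAP5SA 3, none of the list genes given here with values kept its call in YAP5SA against Control. In MEF2A against Control 0 genes of the 6 lists were called, and in YAP5SA_MEF2A against Control only Nebl and Ccn2 were. In YAP5SA against MEF2A the counts, higher and lower, were 0 and 4 of 14 for the natriuretic list, 1 and 1 of 3 for other actins, 1 and 6 of 15 for thin filament partners, 1 and 2 of 9 for Xin partners, 2 and 2 of 16 for SRF and cardiac factors and 5 and 0 of 16 for fetal and stress genes.

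Nppa and Nppb lie next to each other on chromosome 4, and 12 other genes lie within 100 kb of the pair, of which 8 were tested. Clcn6, 2180 bases beyond Nppa, had a log2 fold change of -0.05 ± 0.31 in YAP5SA against Control (edgeR adjusted p = 0.952) and was not called. In YAP5SA against MEF2A, the antisense gene Gm13054 was called higher (log2 fold change 5.05 ± 1.31, edgeR adjusted p = 0.0158). It had 3.76 ± 2.28 CPM in YAP5SA and 0.119 ± 0.15 CPM in MEF2A. This call was lost without MEF2A 3, MEF2A 4, YAP5SA 1 or YAP5SA 3. Nppa and Nppb were called higher in that comparison too. The values cannot show whether Gm13054 changed apart from Nppa. Exons of Gm13054 and Nppa overlap by 532 bases, where reads of unknown strand may stem from either gene.

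Genes whose log2 CPM most resembled that of each member over the 14 libraries were ranked by Pearson's r among 11196 genes, as a description in which the group differences and library quality are shared by all genes. For Nppb these were Prelid1 (r = 0.954), Atp1b1 (0.944) and Spcs3 (0.924), and for Nppa Prep (0.902), Svbp (0.893) and Zfc3h1 (0.875). For Acta2 they were Vps13a (0.953), Sbno2 (0.945) and Lmna (0.936), for Actc1 Arhgef10l (0.842), Actg1 (0.822) and Fbxl22 (0.820), and for Acta1 Hspb6 (0.905), Fam162a (0.878) and Cycs (0.814). For Xirp1 they were Palld (0.925), Osbpl9 (0.915) and Shb (0.899), and for Xirp2 Fam162a (0.875) and Pi4k2a (0.870). No list held another member, and Fam162a stood in those of Acta1 and Xirp2.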

How the data were processed

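Per the labels and design text, polyA-selected, non-directional libraries were made from PCM1-enriched heart nuclei. The authors deposited raw read counts, as whole numbers for each Ensembl gene. The submitters' processing notes name STAR, limma and edgeR and the build GRCm38. The counting program and its strand setting are not given in the sources used here.

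Counts were analysed in R 4.3.3 with edgeR 4.0.16: filterByExpr (minimum count 10, total 15), TMM factors, and a robust quasi-likelihood fit of group plus batch to all 14 libraries, tested two-sided by F-test and adjusted over 17987 genes. CPM used TMM-scaled totals, and log2 CPM a prior count of 2. Levels between genes were divided by the length of their joined exons. Intervals are at 95% and cover the spread between libraries as modelled. Alternatives used DESeq2 1.42.0, limma 3.58.1 (voom), other scalings, filters and library sets. The scripts were tested on simulated data.

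The members and the gene lists were chosen with earlier results of these data known. Named list genes are the 2 called with the smallest p per comparison with Control. Other called members of a list are given by symbol. Likeness was ranked among named genes whose mean log2 CPM was 1 or more, and the 3 highest r were taken; some genes that the rules name are not reported here. Neighbours were genes within 100 kb of Nppa and Nppb. Recalculation of list genes and neighbours under the alternatives, and the sum of Nppa and Gm13054, were added after the data were seen.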

Additional observations from a re-analysis of the deposited data

Results flagged for a closer look

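Of the 14 groups of member values with 4 or more libraries, 2 held a library far from the others by Dixon's test at 95%, where chance marks about 1 group in 20. Nppa had 16.6 CPM in Control 3, against 8.93 to 10.9 CPM in the other Controls (gap of 0.742 of the range). Nppb had 236 CPM in Control 1, against 62.0 to 104 CPM in the other Controls (0.759). Groups of 2 and 3 libraries were not tested in this way.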

How the results depend on the processing

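Depth and the small groups set the limits: 2 YAP5SA_MEF2A and 3 YAP5SA libraries, a biological coefficient of variation of 0.503, batch that crosses the groups only in part, and sex, which is one and the same within YAP5SA (male) and within YAP5SA_MEF2A (female) and so cannot be told apart from the added MEF2A between them. Each comparison of the 7 members was repeated with other scalings, filters, tools and library sets. Of 107 counts of called members, 83 stayed within 1.5 times and 24 moved. The 83 include every count of 0 that stayed at 0, in the comparisons with no called member as reported. They therefore say little about how firm the calls are. Of 756 member values, 663 kept direction and call, 24 lost a call, 31 gained one and 38 changed sign, and the cause was not tested. In YAP5SA against Control (2 called), the count was 1 with upper-quartile factors, the replicate block, batch 1, without Controls 1 and 2, with a sex term and with only the groups compared, 0 without Controls 1 and 2 and YAP5SA 3, 3 with library totals or in batch 2, where Nppa joined, and 4 with no filter. In YAP5SA_MEF2A against Control (0), it was 1 with library totals, no batch term, batch 1 or a sex term, 2 with DESeq2, limma-voom or only the groups compared, and 3 with no filter. In YAP5SA_MEF2A against MEF2A (1), it was 0 with the block, 2 with only the groups compared and 3 with no filter. In YAP5SA against MEF2A (4), it was 1 in batch 1 and 0 without Controls 1 and 2 and YAP5SA 3. With no filter it was also 1 in MEF2A against Control, 3 in YAP5SA_MEF2A against YAP5SA and 2 in the interaction (each 0 as reported). All 7 members pass the filter, so their counts are the same without it, while the modelled spread changes. The SE of Nppb in YAP5SA against Control was 0.219 with no filter, against 0.632 as reported. Libraries of the same number were no more alike than others. The correlation of deviations from the group means ran from -0.184 to 0.089 over 16 same-numbered pairs, with 0 over 0.1. Over the 55 other pairs it ran from -0.149 to 0.174. The check cannot settle whether libraries were paired, because batch was left in and deviations of the 2 YAP5SA_MEF2A libraries mirror each other. With the replicate block in place of batch, Acta2 alone kept its call in YAP5SA against Control, where 938 genes were called, and Nppa, Nppb and Acta2 theirs in YAP5SA against MEF2A, while Acta1 turned to 0.031 there. Genes called in all, over the settings that did not omit a single library, ran from 75 to 2937 in YAP5SA against Control (1773 as reported), 0 to 482 in MEF2A against Control (3), 43 to 1395 in YAP5SA_MEF2A against Control (244), 0 to 164 in YAP5SA_MEF2A against YAP5SA (0), 207 to 2523 in YAP5SA_MEF2A against MEF2A (417), 667 to 3968 in YAP5SA against MEF2A (2679) and 0 to 61 in the interaction (0). Signs turned as follows. With library totals, Acta1 (0.072), Actc1 (0.13) and Xirp2 (0.037) in YAP5SA against Control, Acta1 (0.10) in MEF2A against Control, Nppa (0.65), Nppb (0.76) and Actc1 (0.73) in YAP5SA_MEF2A against Control and Actc1 (0.30) in YAP5SA_MEF2A against MEF2A. With limma-voom, Acta1 (0.13) in MEF2A against Control and Nppa (0.24) and Nppb (0.16) in YAP5SA_MEF2A against Control, and with no batch term Nppb (0.12) there. In batch 1, Acta2 (-0.47) and Xirp2 (-0.58) in MEF2A against Control, Xirp1 (-0.014) in YAP5SA_MEF2A against MEF2A and Acta1 (0.094) in the interaction. In batch 2, Acta1 (1.23) and Xirp2 (0.23) in YAP5SA against Control, Acta1 (0.14) and Xirp1 (-0.14) in MEF2A against Control and Acta1 (1.09) in YAP5SA against MEF2A. Without Controls 1 and 2, Acta1 (0.40) and Xirp2 (0.16) in YAP5SA against Control, Acta1 (0.81) and Xirp1 (-0.18) in MEF2A against Control, and Nppb (0.45), Actc1 (0.024) and Xirp1 (-0.17) in YAP5SA_MEF2A against Control. Without these and YAP5SA 3, Xirp2 (0.08) in YAP5SA against Control, Acta1 (0.11) and Xirp1 (-0.17) in MEF2A against Control, Xirp1 (-0.17) in YAP5SA_MEF2A against Control and Nppa (0.00046) in the interaction. With a sex term, Xirp1 (-0.021) in MEF2A against Control, Actc1 (0.045) in YAP5SA_MEF2A against Control and Acta2 (0.22) in YAP5SA_MEF2A against YAP5SA. With only the groups compared, Xirp1 (-0.011) in YAP5SA_MEF2A against MEF2A. Omitting 1 library at a time gave 0 to 4 called members in YAP5SA against Control and in YAP5SA against MEF2A, 0 to 2 in YAP5SA_MEF2A against Control and 0 to 1 in YAP5SA_MEF2A against MEF2A or YAP5SA. Signs turned for Acta1 (-0.48 to 0.32 in MEF2A against Control, -2.04 to 0.26 in YAP5SA against Control, -1.83 to 0.47 in YAP5SA against MEF2A), Nppa (-0.52 to 0.071 in YAP5SA_MEF2A against Control, -1.03 to 0.058 in the interaction), Nppb (-0.44 to 0.38 in YAP5SA_MEF2A against Control) and Xirp1 (-0.023 to 0.28 in MEF2A against Control, -0.027 to 0.28 in YAP5SA_MEF2A against Control, -0.033 to 0.17 against MEF2A, -0.60 to 0.14 against YAP5SA and -0.67 to 0.032 in the interaction). Mean levels in YAP5SA_MEF2A moved beyond the SD of its 2 close libraries with library totals, to 161 CPM for Nppb, 7.46 for Acta1, 368 for Acta2, 2228 for Actc1, 128 for Xirp1 and 63.4 for Xirp2 (Actc1 in Control to 1562), and for Acta2 with RLE factors (295) or with 139 mitochondrial, ribosomal and haemoglobin genes removed (299.8).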
